A study of Mus musculus with 27 samples.

Results

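The blood-brain barrier genes followed here are 10 genes of the endothelial cells that line brain vessels, namely Cldn5, Ocln, Tjp1, Slc2a1, Mfsd2a, Abcb1a, Pecam1, Cdh5, Tek and Plvap. They were picked as the rows of the count table whose Ensembl identifier, without its version, carries 1 of these 10 symbols in GENCODE M21, and all 10 were found among 55487 rows. All 10 also passed the filter on low counts, which 20271 genes did. Between 94 and 8450 reads were assigned to a gene of the 10 in a library, with the lowest counts at Ocln and Plvap.

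The libraries came from bulk hippocampus and cortex of male C57Bl/6J wild-type mice, taken by the study from the hemisphere opposite to the infusion. Mice were 8 weeks old, and an osmotic pump delivered fluid at 0.25 µl per hour into the right lateral ventricle for 14 days. The fluid held α-IgLON5, human autoantibodies to the neuronal surface protein IgLON5 (groups of 4 hippocampi and 4 cortices), a control human IgG (4 and 5) or PBS alone (5 and 5). No genetic change was made in any group, and all animals carried a pump. The sample labels call the control IgG monoclonal and non-reactive, whereas the study's text describes IgG from a healthy person, so that the group is named control IgG here. The labels also give neurons as the cell type, but the material was dissected tissue, and endothelial, glial and neuronal genes were all detected. Each library carries a number, and 13 numbers occur in both tissues of the same treatment. The labels do not say that libraries of the same number came from 1 animal, and all α-IgLON5 libraries carry numbers from 8 to 17. If samples of a group share more than the labels say, the p-values measure a spread that may be partly technical.

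The blood-brain barrier is formed by capillary endothelial cells that are sealed to each other by tight junctions, carry selective transporters and keep vesicle traffic low. Pericytes, the basement membrane and astrocyte endfeet surround these cells and help to maintain the barrier, and Wnt, angiopoietin and VEGF signals set its state. In inflamed brain tissue, endothelial cells can present adhesion molecules for leukocytes. In bulk tissue, fewer endothelial cells and less RNA per cell cannot be told apart.

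Total counts ran from 19385642 to 58550621 per library. Summed markers of the cortex and of the hippocampus separated the tissues as labeled, at 1181 to 1835 CPM, counts scaled to library size, for 7 cortex markers in cortices and 336 to 902 in hippocampi. The highest cortex sums among hippocampi, 658 and 902 CPM, were those of control IgG libraries 10 and 37. The PBS hippocampus 74 held 3906 CPM of 8 pituitary markers, against at most 220 in any other library. Microglial and macrophage markers were raised under α-IgLON5, with 10 of 12 called in the hippocampus and 6 of 12 in the cortex against control IgG. Erythrocyte markers were low, with a sum of 2.33 to 9.16 CPM over 6 genes in the 27 libraries.

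The sequences upstream of 3 genes are shown here. Ocln is given because its level separated the tissues, and Slc2a1 and Mfsd2a because their levels moved together from library to library. They are the 250 bases before a RefSeq transcription start, from the RefSeq table of build GRCm38.p6, which held 7 of the 10 genes. Capitals mark the GC box GGGCGG on either strand, a short motif bound by Sp1-type factors.
Ocln, chr13:100552719-100552968, minus strand: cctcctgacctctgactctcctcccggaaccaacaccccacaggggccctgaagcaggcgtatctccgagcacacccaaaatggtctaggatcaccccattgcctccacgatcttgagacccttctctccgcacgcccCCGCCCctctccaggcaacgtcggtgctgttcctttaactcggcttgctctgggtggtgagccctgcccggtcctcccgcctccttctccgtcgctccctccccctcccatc
Slc2a1, chr4:119108495-119108744, plus strand: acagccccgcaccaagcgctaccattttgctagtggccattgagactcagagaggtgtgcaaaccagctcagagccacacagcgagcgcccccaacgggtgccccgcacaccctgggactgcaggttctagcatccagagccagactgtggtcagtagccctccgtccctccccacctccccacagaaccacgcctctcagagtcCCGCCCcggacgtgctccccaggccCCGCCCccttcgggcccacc
Mfsd2a, chr4:122961189-122961438, minus strand: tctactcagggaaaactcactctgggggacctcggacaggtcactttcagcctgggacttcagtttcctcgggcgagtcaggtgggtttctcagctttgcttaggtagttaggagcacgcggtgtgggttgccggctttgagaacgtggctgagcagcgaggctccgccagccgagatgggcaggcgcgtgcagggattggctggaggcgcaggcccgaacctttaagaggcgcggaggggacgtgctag
The GC box occurred 1 time in the Ocln sequence, 2 times in that of Slc2a1 and 0 times in that of Mfsd2a, while 32.7% of 32851 windows of this length in the table held it. GC content was 64.0% for Ocln, 66.4% for Slc2a1 and 61.6% for Mfsd2a. Further motifs, the ETS core AGGAAG (in 29.5% of the windows) and the TATA box TATAAA (in 12.4%), were searched on both strands and were not in these 3 windows. Another RefSeq start of Ocln, not shown, had 1 GC box and a GC content of 69.2% in its window.

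Scaled for gene length, the members differed widely in level. In PBS hippocampi the mean CPM per kilobase of exon was 18.1 ± 2.76 (SD, n = 5) for Slc2a1, 17.8 ± 0.97 for Tjp1, 13.9 ± 2.44 for Cldn5 and 9.13 ± 2.16 for Mfsd2a. It was 4.85 ± 0.61 for Abcb1a, 3.81 ± 0.60 for Plvap, 3.43 ± 0.67 for Ocln, 3.31 ± 0.71 for Cdh5, 2.65 ± 0.33 for Tek and 2.38 ± 0.34 for Pecam1. Slc2a1 and Tjp1 lay within each other's SD, as did Plvap, Ocln and Cdh5.

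**Figure D1:**
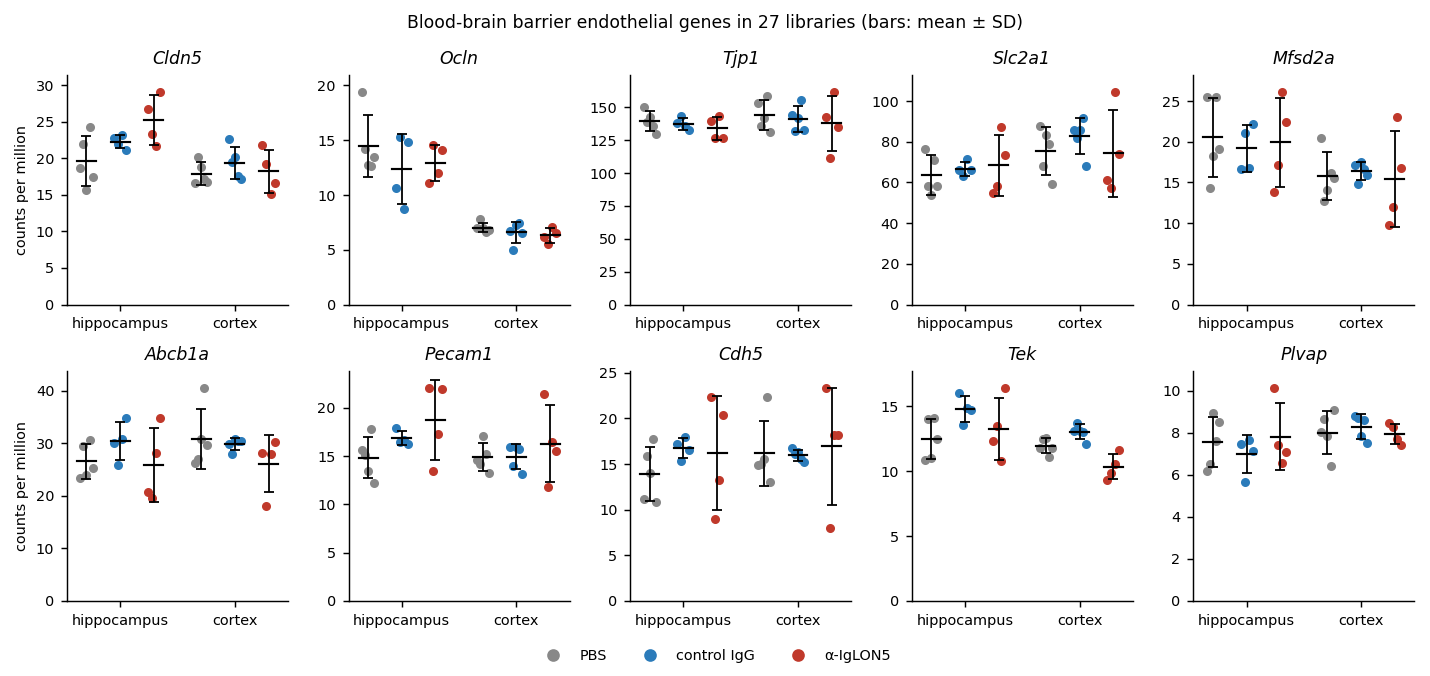
Library-scaled counts (CPM, vertical axes, starting at 0) of the 10 genes in each of the 27 libraries, by tissue and treatment. Points are libraries, and bars give the mean and SD of the group. Ocln was lower in all cortices (at most 7.78 CPM) than in all hippocampi (at least 8.71 CPM), while the treatment groups of the other genes overlapped within a tissue, except for Tek between α-IgLON5 and control IgG cortices.

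The first question was whether α-IgLON5 infusion changed these genes. None of the 10 passed an adjusted p of 0.05 between α-IgLON5 and control IgG (edgeR quasi-likelihood test, Benjamini-Hochberg over all genes), either in the hippocampus, where 7.01% of all genes tested were called, or in the cortex, where 3.46% were. With PBS as the reference the count was again 0 of 10 in both tissues, with 4.29% of all genes called in the hippocampus and 3.05% in the cortex. Control IgG against PBS also gave 0 of 10, with 0.192% of all genes called in the hippocampus and 0% in the cortex, where 1650 genes and 0 members had an unadjusted p under 0.05. At that unadjusted threshold, 0 of 10 members stood between α-IgLON5 and control IgG in the hippocampus (21.9% of all genes) and 1 (Tek) in the cortex (15.4%). Against PBS these were 2 (Cldn5 and Pecam1) in the hippocampus (15.3%) and 1 (Tek) in the cortex (9.26%). Between control IgG and PBS, 1 (Tek) stood in the hippocampus (14% of all genes) and 0 in the cortex (8.14%). DESeq2 called 1 member (Tek) between α-IgLON5 and control IgG cortices, where it called 4.53% of the genes with an adjusted p. It called 0 members in the hippocampus against control IgG (9.69% of genes) and against PBS (5.13%), in the cortex against PBS (3.42%), and between control IgG and PBS in the hippocampus (3.07%) and cortex (0.206%), where it gave only 2 of 10 members an adjusted p. The median log2 fold change of α-IgLON5 against control IgG was 0.05 over the members and 0.00 over all genes in the hippocampus, and -0.08 and -0.01 in the cortex. All comparisons within a tissue share control or α-IgLON5 libraries and are not independent of each other. The 95% intervals of the 20 differences between α-IgLON5 and control IgG lay between -0.55 and 0.56 on the log2 scale, so that a fold change above 2 in either direction lay outside every interval.

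**Figure D2:**
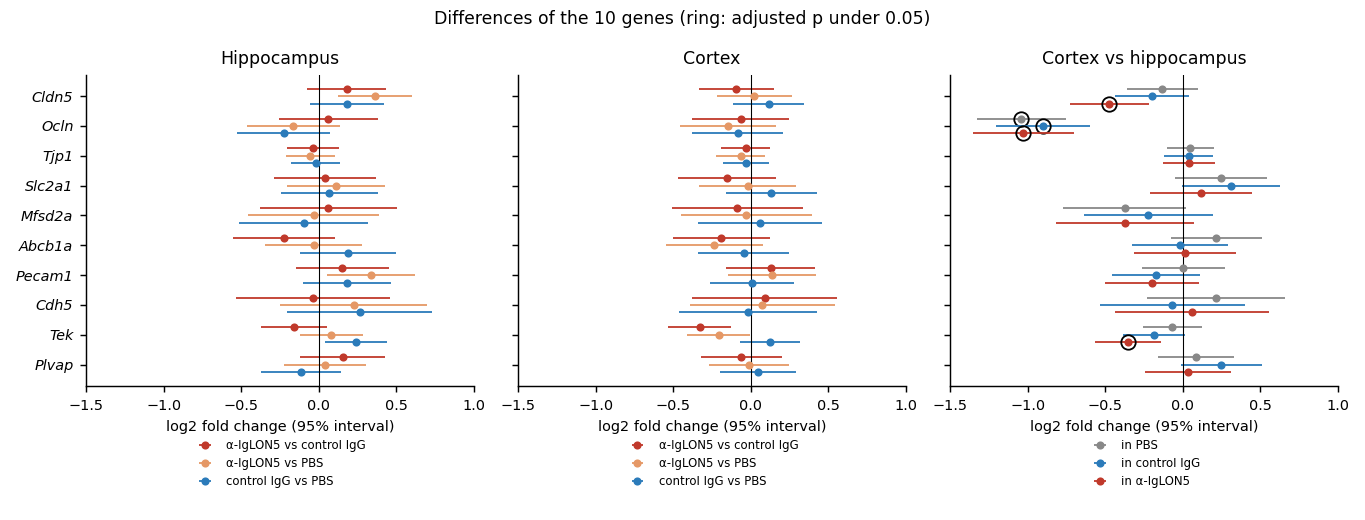
Log2 fold changes (horizontal axes) of the 10 genes with 95% intervals for the 3 treatment comparisons in the hippocampus and in the cortex, and for cortex against hippocampus in each treatment. Rings mark an adjusted p under 0.05, which 0 treatment differences reached and which Ocln reached in all 3 tissue comparisons, Cldn5 and Tek in the α-IgLON5 libraries.

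Claudin-5, occludin and ZO-1 are parts of the tight junction. Cldn5 (ENSMUSG00000041378.2, chr16:18776847-18778262, plus strand, build GRCm38 as all gene coordinates here) encodes claudin-5, the main claudin of the brain endothelium. In the hippocampus Cldn5 stood at 26.8, 23.4, 21.6 and 29.1 CPM in α-IgLON5 libraries 8, 9, 16 and 17. The control IgG hippocampi 10, 15, 37 and 75 held 22.7, 21.9, 23.2 and 21.2 CPM of it. In PBS hippocampi 14, 32, 33, 38 and 74 the values were 18.7, 21.9, 15.7, 24.3 and 17.5 CPM. The α-IgLON5 group had the highest 2 values of the tissue, but it overlapped with both controls. The log2 difference was 0.18 against control IgG (SE 0.123, adjusted p 0.417) and 0.36 against PBS (SE 0.117, unadjusted p 0.00461, adjusted p 0.084). The difference from PBS passed the threshold without PBS library 38 (0.44, adjusted p 0.0211) or without α-IgLON5 library 16 (0.43, adjusted p 0.0359), and it ranged from 0.28 to 0.44 over all alternatives. In the cortex the means of Cldn5 were 18.2 ± 2.97 CPM (SD, n = 4) under α-IgLON5, 19.4 ± 2.20 (n = 5) under control IgG and 17.9 ± 1.58 (n = 5) under PBS.

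Ocln (ENSMUSG00000021638.12, chr13:100496507-100552718, minus strand) encodes occludin, a membrane protein of the same junctions that other cell types also make. Its hippocampal means were 12.9 ± 1.62 CPM under α-IgLON5 (n = 4), 12.4 ± 3.21 under control IgG (n = 4) and 14.5 ± 2.84 under PBS (n = 5). Its log2 difference between α-IgLON5 and control IgG was 0.06 (SE 0.154) in the hippocampus and -0.06 (SE 0.152) in the cortex. The hippocampal values of 10.7 and 8.71 CPM in control IgG libraries 10 and 37 were the lowest of that tissue, and these are the libraries with the highest cortex marker sums. With a score of tissue composition as a covariate the hippocampal difference was -0.21 (adjusted p 0.704).

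Tjp1 (ENSMUSG00000030516.14, chr7:65296165-65527781, minus strand) encodes ZO-1, which ties the junction to the cytoskeleton in many cell types. It varied least, between 112 and 162 CPM over the 27 libraries, and its difference between α-IgLON5 and control IgG was -0.03 in both tissues (SE 0.081 and 0.077).

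The next members are transport proteins of the barrier. Slc2a1 (ENSMUSG00000028645.11, chr4:119108711-119137983, plus strand) encodes GLUT1, the glucose carrier of the barrier. In α-IgLON5 hippocampi 8, 9, 16 and 17 it read 54.8, 58.2, 87.3 and 73.6 CPM, and in the cortices of the same numbers 61.1, 57.4, 104.7 and 74.2 CPM. Control IgG hippocampi lay between 63.0 and 71.6 CPM, and control IgG cortices between 68.0 and 91.9 CPM. In both tissues the α-IgLON5 libraries thus fell on either side of the control IgG group, with numbers 8 and 9 below every control IgG library and number 16 above every one. PBS libraries were wider, at 53.9 to 76.5 CPM in the hippocampus and 59.2 to 87.9 CPM in the cortex, and α-IgLON5 hippocampi 8, 9 and 17 lay within that range. Mean differences were 0.04 (SE 0.161) in the hippocampus and -0.15 (SE 0.153) in the cortex.

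Mfsd2a (ENSMUSG00000028655.11, chr4:122946850-122961188, minus strand) encodes the carrier of lysophosphatidylcholine with docosahexaenoic acid, which also restrains vesicle traffic in brain endothelium. Its values in α-IgLON5 libraries 8, 9, 16 and 17 were 13.8, 17.2, 26.2 and 22.5 CPM in the hippocampus and 9.84, 12.02, 23.1 and 16.7 CPM in the cortex. Control IgG spanned 16.7 to 22.1 CPM in the hippocampus and 14.9 to 17.5 CPM in the cortex. PBS libraries were wider, at 14.3 to 25.5 CPM and 12.7 to 20.5 CPM. Number 8 was the lowest and number 16 the highest of the α-IgLON5 group in each tissue, and both lay outside the range of the controls given control IgG. Differences between the means of α-IgLON5 and control IgG were 0.06 (SE 0.215) and -0.09 (SE 0.206).

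Abcb1a (ENSMUSG00000040584.8, chr5:8660077-8748575, plus strand) encodes P-glycoprotein, which pumps drugs back into the blood. Under α-IgLON5 its level was 20.8, 19.5, 28.2 and 34.8 CPM in hippocampi 8, 9, 16 and 17 and 28.2, 18.1, 28 and 30.3 CPM in the cortices. Control IgG libraries spanned 25.9 to 34.7 CPM in the hippocampus and 27.9 to 30.8 CPM in the cortex. PBS libraries spanned 23.4 to 30.6 CPM and 26.3 to 40.5 CPM. Number 9 was the lowest in both tissues. The difference between α-IgLON5 and control IgG was -0.22 (SE 0.160, adjusted p 0.447) in the hippocampus and -0.19 (SE 0.152, adjusted p 0.602) in the cortex. Exons of Abcb1a share 553 bases with an unconfirmed transcript model on the opposite strand, and those of Slc2a1 share 105 bases with an antisense gene. The library kit kept strand, but the setting used in counting is not given in the sources used here, so that reads from these overlaps cannot be told apart.

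Pecam1 and Cdh5 mark endothelial cells in every organ. Pecam1 (ENSMUSG00000020717.19, chr11:106654217-106750628, minus strand) encodes CD31, an adhesion molecule of endothelium, platelets and leukocytes. Its hippocampal values were 22.05, 13.5, 17.3 and 21.98 CPM in α-IgLON5 libraries 8, 9, 16 and 17, 16.3 to 17.9 CPM under control IgG and 12.2 to 17.8 CPM under PBS. The log2 difference from PBS was 0.34 (SE 0.139, unadjusted p 0.0223, adjusted p 0.211) and that from control IgG 0.15 (SE 0.146). With both libraries numbered 9 left out, the difference from PBS was 0.45 with an adjusted p of 0.025.

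Cdh5 (ENSMUSG00000031871.9, chr8:104101625-104144511, plus strand) encodes VE-cadherin, the adherens junction protein of endothelium. In hippocampi 8, 9, 16 and 17 given α-IgLON5 it measured 22.4, 8.96, 13.2 and 20.4 CPM, and in the cortices of these numbers 23.3, 8.05, 18.1 and 18.2 CPM. Control IgG libraries spanned 15.3 to 17.99 CPM in the hippocampus and 15.2 to 16.7 CPM in the cortex. The means of α-IgLON5 and control IgG differed by -0.04 (SE 0.241) in the hippocampus and 0.09 (SE 0.228) in the cortex, while number 8 was the highest and number 9 the lowest α-IgLON5 library in each tissue. Over all alternatives these differences ran from -0.22 to 0.18 and from -0.10 to 0.32, and none was called.

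Tek (ENSMUSG00000006386.15, chr4:94739289-94874976, plus strand) encodes TIE2, the angiopoietin receptor that keeps endothelium quiescent. In the cortex it stood at 9.32, 9.89, 10.6 and 11.6 CPM in α-IgLON5 libraries 8, 9, 16 and 17. Control IgG cortices 10, 11, 15, 37 and 75 held 13.1, 13.7, 13.1, 13.1 and 12.1 CPM, and PBS cortices 14, 32, 33, 38 and 74 held 11.8, 12.5, 12.5, 11.1 and 11.8 CPM. All 4 α-IgLON5 cortices were below all 5 control IgG cortices, a separation in this direction that 2.67% of all genes showed, but they overlapped with PBS. The log2 difference from control IgG was -0.33 (SE 0.099, 95% interval -0.53 to -0.13, unadjusted p 0.00263), and its adjusted p of 0.0657 missed the threshold. DESeq2 gave -0.33 with an adjusted p of 0.0376, and without α-IgLON5 library 17 edgeR gave -0.39 with an adjusted p of 0.0425. Over all alternatives the value ran from -0.39 to -0.28 with an adjusted p from 0.0376 to 0.29. In the hippocampus Tek differed by -0.16 (SE 0.103, adjusted p 0.387), and the difference between the tissues in the effect of α-IgLON5 was -0.17 (SE 0.143, adjusted p 0.719). Against PBS, Tek differed by -0.21 (SE 0.099, adjusted p 0.531) in α-IgLON5 cortices and 0.12 (SE 0.093, adjusted p 0.765) in control IgG cortices. In the hippocampus these values were 0.08 (adjusted p 0.786) and 0.24 (adjusted p 0.235).

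Plvap (ENSMUSG00000034845.6, chr8:71497765-71511752, minus strand) encodes the diaphragm protein of fenestrated vessels and is scarce in vessels with a mature barrier. It was detected at 5.68 to 10.1 CPM, and its highest value was in α-IgLON5 hippocampus 8, where the other 3 libraries of the group held 6.56 to 7.43 CPM. The difference between α-IgLON5 and control IgG was 0.16 (SE 0.134, adjusted p 0.54) in the hippocampus and -0.06 (SE 0.126, adjusted p 0.878) in the cortex, with intervals of -0.12 to 0.43 and -0.32 to 0.20.

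With the tissue composition score as a covariate, differences between α-IgLON5 and control IgG moved at several members, and none was called. In the hippocampus they were 0.30 for Slc2a1 (SE 0.173), 0.30 for Pecam1 (SE 0.172), 0.26 for Plvap (SE 0.166), 0.24 for Cldn5 (SE 0.152), 0.18 for Cdh5 (SE 0.285) and 0.13 for Mfsd2a (SE 0.254). They were -0.13 for Abcb1a, -0.07 for Tek and 0.02 for Tjp1. In the cortex Tek was -0.28 (SE 0.106, adjusted p 0.204), Ocln -0.22, Cdh5 0.22, Pecam1 0.21 and Slc2a1 -0.01.

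The effect of α-IgLON5 against control IgG was then compared between the tissues as an interaction. This test called 0 of 10 members and 0% of all genes, with 2158 genes and 0 members at an unadjusted p under 0.05, 10.6% of all genes, and DESeq2 also called 0 of the 8 members to which it gave an adjusted p, and 0.373% of genes. The largest member value was -0.27 for Cldn5 (SE 0.170, adjusted p 0.593), whose interval of -0.63 to 0.08 includes 0.

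Cortex and hippocampus were compared within each treatment. Ocln was lower in the cortex in every treatment. Its values in PBS cortices 14, 32, 33, 38 and 74 were 6.98, 7.78, 6.96, 6.65 and 6.76 CPM. The hippocampi with these numbers held 19.4, 14.2, 12.7, 12.6 and 13.5 CPM, all of them above the cortices. Ocln was called in PBS, as 1 of 10 members, where 26.7% of all genes were called and 12.7% were lower in the cortex. Its log2 difference was -1.04 (SE 0.140, adjusted p 2.62e-06) in PBS, -0.90 (SE 0.148, adjusted p 6.52e-05) in control IgG and -1.03 (SE 0.158, adjusted p 2.41e-05) in α-IgLON5 libraries. Its groups did not overlap in any treatment, and 8.61% of all genes in PBS, 8.92% in control IgG and 11.3% in α-IgLON5 libraries were separated in this direction. Over the alternatives the 3 values stayed between -1.10 and -0.78 with adjusted p of at most 0.00265.

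In control IgG libraries Ocln was again called, as 1 of 10 members, against 19.9% of all genes (9.23% lower in the cortex). Pecam1 and Ocln, 2 of 10 members, there did not overlap between the tissues, a separation in this direction that 8.92% of all genes showed. Pecam1 stood at 13.1 to 15.9 CPM in cortices and 16.3 to 17.9 CPM in hippocampi, a difference of -0.17 (SE 0.138, adjusted p 0.428). In α-IgLON5 libraries 3 of 10 members were lower in the cortex, Ocln, Cldn5 and Tek, where 23.9% of all genes were called and 11.8% were lower. Cldn5 stood at 21.9, 19.2, 15.1 and 16.6 CPM in α-IgLON5 cortices 8, 9, 16 and 17, a difference of -0.47 from the hippocampi (SE 0.124, adjusted p 0.00573). Tek differed by -0.36 (SE 0.104, adjusted p 0.0134), and it was no longer called without cortex library 8 (-0.30, adjusted p 0.0587) or without hippocampus library 17 (-0.23, adjusted p 0.102) or without both libraries numbered 9 (-0.32, adjusted p 0.0753), nor with no count filter beyond 1 count (-0.31, adjusted p 0.0609) or with only these groups fitted (-0.34, adjusted p 0.126). Mfsd2a, at -0.37 (SE 0.216, adjusted p 0.233), passed without cortex library 16 (-0.62, adjusted p 0.0389) and with the library number as a replicate block. Calls with that block, which also include Slc2a1 in the controls, are given in the last paragraph. In control IgG libraries the same differences were -0.20 (SE 0.117) for Cldn5, -0.19 (SE 0.097) for Tek and -0.22 (SE 0.204) for Mfsd2a. In PBS they were -0.13 (SE 0.111), -0.07 (SE 0.092) and -0.38 (SE 0.193). Whether the tissue difference of these genes differs between α-IgLON5 and control IgG was covered by the interaction above, which did not call them. No interaction was fitted between α-IgLON5 and PBS.

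The α-IgLON5 libraries had a larger spread than either control group at most members, by different amounts. Against control IgG the SD of log2 CPM was larger under α-IgLON5 at 9 of 10 members in the hippocampus, where this held for 66.3% of all genes, and at 8 of 10 in the cortex, where it held for 50.9%. The median ratio of the SDs was 2.42 over the members and 1.33 over all genes in the hippocampus, and 2.32 and 1.02 in the cortex. Against PBS the counts were 8 of 10 (58.5% of all genes) in the hippocampus and 9 of 10 (46.7%) in the cortex, with median ratios of 1.32 over the members and 1.14 over all genes in the hippocampus and of 1.90 and 0.95 in the cortex. Members that vary together are not independent, and these counts were given no test.

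**Figure D3:**
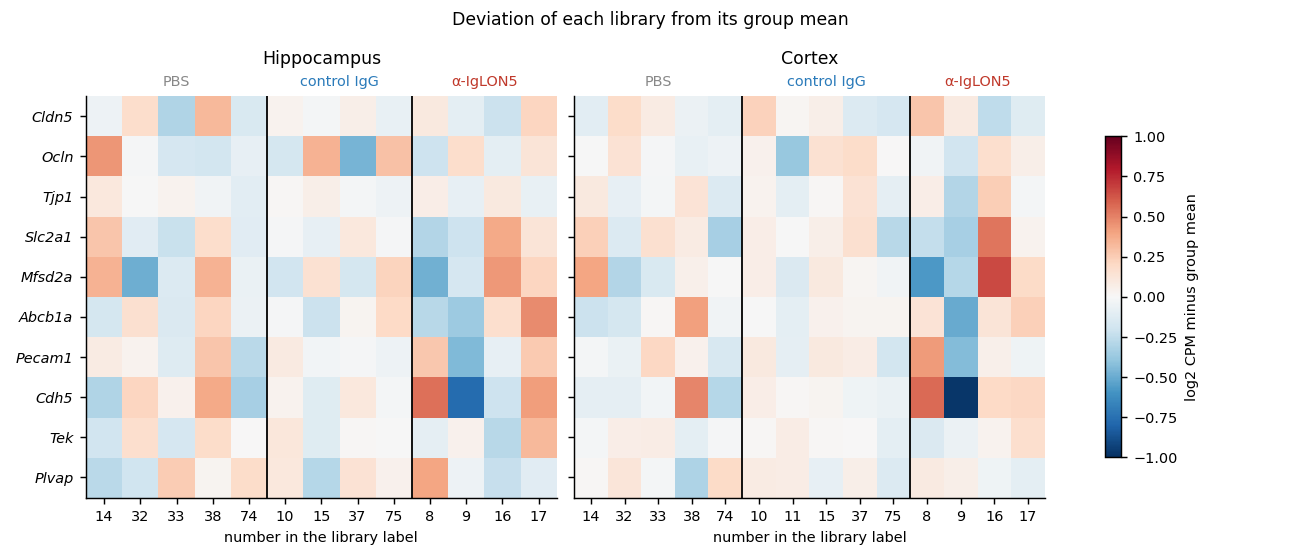
Deviation of log2 CPM of each of the 10 genes (rows) from the mean of its group in each library (columns, by the number in the label), for the hippocampus and the cortex. Red is above and blue below the group mean. In α-IgLON5 libraries, number 8 is red at Cdh5 and Pecam1 and blue at Mfsd2a, number 9 is blue at Cdh5 (-0.77 in the hippocampus and -0.97 in the cortex), and number 16 is red at Slc2a1 and Mfsd2a, in both tissues.

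Some members deviated together from their group means. Over the 27 libraries, Pecam1 and Cdh5 had a Pearson r of 0.84, Slc2a1 and Mfsd2a of 0.77, and Abcb1a and Cdh5 of 0.68. Plvap was opposite to Ocln (r = -0.50). These are descriptions, since libraries of the same number may not be independent and all values share the library's depth and composition. Among 15239 genes with a mean of at least 1 CPM, those most like Cldn5 were Hilpda (r = 0.76), Fzd9 (0.74), Pgs1 (0.74), Crip1 (0.72) and Chmp6 (0.71). The genes most like Plvap were Dnajc30 (0.80), Dennd1a (0.79), Flot1 (0.79), Mrpl54 (0.77) and Prmt5 (0.76).

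Across the 13 numbers found in both tissues, deviations in the hippocampus were set against those in the cortex. For Cdh5, Pearson's r was 0.86 (exact permutation within treatments, two-sided, p 0.00339) and Spearman's rho 0.73 (p 0.00635). For Mfsd2a the r was 0.84 (exact permutation p 0.00347) and the rho 0.71 (p 0.0263). Adjusted over 20271 genes these Pearson p-values were 0.192 and 0.194, and 0% of all genes passed 0.05, while 11.9% had an unadjusted p under 0.05. Without the 2 numbers farthest from the median the r was 0.62 for Cdh5 and 0.79 for Mfsd2a, and in the 9 control numbers alone it was 0.74 and 0.73. Slc2a1 gave an r of 0.74 (exact permutation p 0.0271, adjusted p 0.351) and a rho of 0.62 (p 0.066). Its r was 0.49 without its 2 farthest numbers and 0.44 in the control numbers. Tjp1 gave an r of 0.66 (exact permutation p 0.0414, adjusted p 0.397) and a rho of 0.64 (p 0.0469). The other 6 members ranged from -0.16 (Ocln) to 0.64 (Pecam1), where the median of all genes was 0.17.

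Markers of other cells also differed in the libraries numbered 9, where Cdh5 was low. In cortex 9 Cldn5 and Plvap lay above the group mean and the other members below it. In hippocampus 9 Ocln and Tek lay above the group mean and the other members below it. In hippocampus 9 all 10 markers of leptomeninges and perivascular fibroblasts were the lowest of 13 hippocampi, with a sum of 220 CPM against 517 to 1892 in the others. In cortex 9 the lowest of 14 values was seen for 9 of 10, with a sum of 304 CPM against 1076 to 2918. None of these markers was at 0 in either library. The sum of 13 pericyte and smooth muscle markers was also lowest in number 9, at 242 CPM in the hippocampus and 190 CPM in the cortex, and a list of 21 further endothelial genes summed to 331 CPM in cortex 9 against 371 to 419 CPM in the other cortices. In hippocampus 9 the same list summed to 327 CPM, above the 303 CPM of PBS library 33 and below the other 11 hippocampi. Microglial and macrophage markers had their highest sums there, 1303 and 829 CPM. The PBS cortex 38, in which Cdh5 was highest among PBS cortices at 22.3 CPM, had the highest leptomeningeal sum of all libraries, 2918 CPM. Cdh5 was higher still in α-IgLON5 cortex 8, at 23.3 CPM, and highest among hippocampi in α-IgLON5 library 8, at 22.4 CPM. Leptomeningeal sums of α-IgLON5 libraries were at most 1869 CPM in the cortex and 1483 CPM in the hippocampus. The part of these cells in the levels of the members was not tested.

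Genes of the surrounding pathways were read from the same fit, with α-IgLON5 against control IgG unless stated. In that comparison 7.01% of all genes tested were called in the hippocampus and 3.46% in the cortex. Among 15 tight junction partners, 1 rose and 2 fell in the hippocampus (median -0.09 on the log2 scale, against 0.00 for all genes) and 1 rose in the cortex (median 0.00). The gene that rose in both was F11r, which encodes the junctional adhesion molecule JAM-A of endothelium, epithelium, platelets and leukocytes. It measured 12.2, 16.6, 14.6 and 10.3 CPM in α-IgLON5 hippocampi 8, 9, 16 and 17, and 7.73, 8.54, 6.66 and 8.30 CPM in control IgG hippocampi 10, 15, 37 and 75. The cortical means were 10.0 ± 0.17 CPM (n = 4) and 7.35 ± 0.82 CPM (n = 5), and the groups did not overlap in either tissue. A separation in this direction was shown by 6.68% of all genes in the hippocampus and 3.68% in the cortex. F11r differed by 0.78 in the hippocampus (SE 0.116, adjusted p 8.95e-05) and 0.45 in the cortex (SE 0.111, adjusted p 0.0172). The hippocampal call held with any library left out, whereas the cortical one was lost without control IgG library 10 or 37 or α-IgLON5 library 8. With the tissue composition score as a covariate F11r was 0.63 (adjusted p 0.0164) in the hippocampus and 0.37 (adjusted p 0.107) in the cortex.

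Cldn1 and Cldn12, both claudins, fell by 1.05 (SE 0.322, adjusted p 0.0466) and by 0.31 (SE 0.068, adjusted p 0.00599) in the hippocampus. Cav2, a caveolin of membrane vesicles and the only gene called among 8 genes of transcytosis and fenestration, fell by 0.66 (SE 0.144, adjusted p 0.00551). Against PBS the same 3 genes differed by 0.14, -0.07 and -0.09, with adjusted p of 0.905, 0.693 and 0.852. All 7 cortex markers were lower and all 7 hippocampus markers higher in α-IgLON5 than in control IgG hippocampi, and with the tissue composition score as a covariate the values were -0.55, -0.14 and -0.41, with adjusted p of 0.665, 0.447 and 0.32. The call of Cldn1 was also lost without control IgG library 10 or 37 or without α-IgLON5 library 8, 9 or 17.

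**Figure D4:**
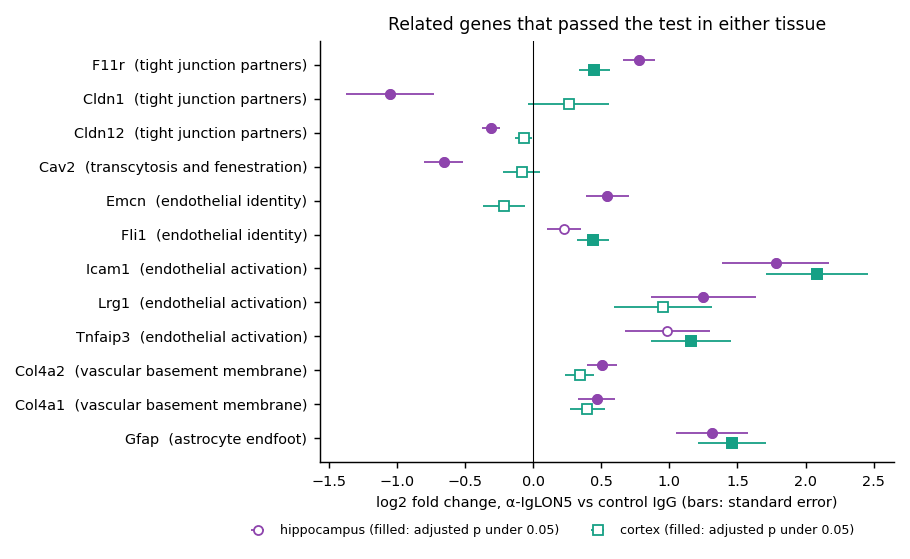
Log2 fold change (horizontal axis, bars are standard errors) between α-IgLON5 and control IgG for the 12 related genes that passed an adjusted p of 0.05 in at least 1 tissue, with the list of each gene in brackets. Filled marks passed, open marks did not. Icam1 and Gfap lie farthest to the right in both tissues, and Cldn1, Cldn12 and Cav2 lie left of 0 in the hippocampus.

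Several barrier lists gave no calls, where 7.01% of all genes tested were called in the hippocampus and 3.46% in the cortex, so that lists of this size would hold few calls at those shares. Adherens junction genes (8 tested), transporters and receptors (17), Wnt signaling (17), VEGF signaling (9) and pericyte and smooth muscle genes (13) had 0 called in either tissue, with medians between -0.11 and 0.14. Angiopoietin signaling (4 tested of 5), the pathway of Tek, also had 0 called, with medians of -0.23 and 0.19. Among 21 genes of endothelial identity, 17 were higher in the hippocampus (median 0.17) and 1 was called, the sialomucin gene Emcn (0.55, SE 0.160, adjusted p 0.0379). In the cortex 12 of 21 were higher (median 0.01) and Fli1, an ETS factor of endothelial and blood cells, was called (0.44, SE 0.119, adjusted p 0.0348). Against PBS, Emcn in the hippocampus was 0.29 (adjusted p 0.368) and Fli1 in the cortex 0.37 (adjusted p 0.118), and neither was called. The call of Emcn was lost without any 1 of the 4 control IgG libraries or of α-IgLON5 libraries 8, 9 and 17, and that of Fli1 without control IgG library 10, 37 or 75 or α-IgLON5 library 8 or 16.

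Of 9 genes of endothelial activation 7 were tested. In each tissue 2 rose, where 7.01% of all genes were called in the hippocampus and 3.46% in the cortex. Medians of the list were 0.99 in the hippocampus and 0.95 in the cortex. These medians are the values of Tnfaip3 and Lrg1, which were 0.74 and 0.38 without α-IgLON5 library 8 of the tissue, and the summed level of the list was highest in library 8, at 171 and 223 CPM against 85.6 to 92.5 and 88.7 to 96.1 CPM in the other α-IgLON5 libraries. Icam1, an adhesion molecule for leukocytes that microglia and astrocytes also make, stood at 18.8, 8.11, 4.63 and 5.64 CPM in α-IgLON5 hippocampi 8, 9, 16 and 17 and at 22.3, 7.47, 3.69 and 6.81 CPM in the cortices. Control IgG libraries held 2.12 to 3.29 CPM in the hippocampus and 2.0 to 2.66 CPM in the cortex, so that the groups did not overlap in either tissue. Of all genes, 6.68% in the hippocampus and 3.68% in the cortex were separated in this direction. The difference of Icam1 was 1.78 (SE 0.394, adjusted p 0.00587) in the hippocampus and 2.09 (SE 0.374, adjusted p 0.000863) in the cortex, and without library 8 it was 1.18 (adjusted p 0.0664) and 1.34 (adjusted p 0.0137). With the tissue composition score as a covariate Icam1 was 1.27 (adjusted p 0.334) in the hippocampus and 1.76 (adjusted p 0.0163) in the cortex. Lrg1, a secreted glycoprotein of activated endothelium, rose in the hippocampus (1.25, SE 0.385, adjusted p 0.0476), and Tnfaip3, an inhibitor of NF-κB signaling, in the cortex (1.16, SE 0.293, adjusted p 0.022). Without library 8 these were 0.73 (adjusted p 0.307) and 0.54 (adjusted p 0.341), and the calls were also lost without control IgG library 10, 37 or 75 or α-IgLON5 library 17 for Lrg1 and without control IgG library 11 or 37 for Tnfaip3. Microglial markers summed to 730 to 1303 CPM in α-IgLON5 and 427 to 496 CPM in control IgG hippocampi, and to 695 to 829 and 419 to 521 CPM in the cortices. Their part in these values was not tested.

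The basement membrane and the endfeet were called in single genes, where 7.01% of all genes were called in the hippocampus and 3.46% in the cortex. Col4a2 and Col4a1, the main collagen chains of the vascular basement membrane, rose in the hippocampus by 0.50 (SE 0.112, adjusted p 0.00626) and 0.47 (SE 0.135, adjusted p 0.0349), as 2 of 10 genes of this list (median 0.14), while 0 of 10 passed in the cortex (median 0.25). Against PBS they differed by 0.30 (adjusted p 0.127) and 0.33 (adjusted p 0.181) and were not called, and with the tissue composition score as a covariate by 0.52 (adjusted p 0.0851) and 0.52 (adjusted p 0.206). The call of Col4a1 was lost without control IgG library 37 or 75 or α-IgLON5 library 8 or 9. Among 10 genes of astrocyte endfeet, Gfap, an intermediate filament that marks reactive astrocytes, was the only one called, by 1.31 (SE 0.265, adjusted p 0.00262) in the hippocampus and 1.46 (SE 0.248, adjusted p 0.000477) in the cortex. With the tissue composition score as a covariate Gfap was 0.81 (adjusted p 0.306) in the hippocampus and 1.18 (adjusted p 0.00528) in the cortex. Medians of that list were 0.02 and -0.06. Of the 15 calls in these lists, 0 held with libraries numbered 8 to 17 alone, which leave 2 control IgG hippocampi and 3 cortices, 3 held with the tissue composition score as a covariate (F11r in the hippocampus, Icam1 and Gfap in the cortex), and 7 held with each single library left out. With only the groups compared 7 held, without both libraries numbered 8 it was 8, with no count filter beyond 1 count or without both numbered 9 it was 12, without both numbered 16 it was 14, and with DESeq2 all 15 held. Some calls lost with the covariate had values near those without it, which were 0.65 for Emcn (adjusted p 0.149) and 1.11 for Lrg1 (adjusted p 0.407) in the hippocampus, and 0.42 for Fli1 (adjusted p 0.112) and 0.99 for Tnfaip3 (adjusted p 0.134) in the cortex.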

How the data were processed

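Stranded mRNA libraries from total RNA were sequenced in paired-end mode, and the authors aligned the reads to GRCm38 with STAR. The deposited table holds raw counts per gene and library. The counting program, its strand setting and the annotation release are not given in the sources used here, and symbols were taken from GENCODE M21 by identifier without version (55227 of 55487 rows). All 27 libraries were assigned from their labels, and 0 columns were left unmapped. No 2 libraries of a group repeated each other (in 48 pairs, chi-square divided by its degrees of freedom was at least 4.82).

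The low-count filter followed the study: a gene needed 10 counts or more in 4 or more libraries. Fits were made in R 4.3.3 with edgeR 4.0.16 (TMM, glmQLFit, glmQLFTest, 6 groups of tissue and treatment) and Benjamini-Hochberg adjustment over all genes. A call is an adjusted p under 0.05. The study used DESeq2, which was run as an alternative (1.42.0). Scripts were tested on simulated data. CPM values are TMM-scaled, and intervals are 95%. The score of tissue composition is the mean log2 CPM of 100 genes higher in PBS cortex minus that of 100 genes lower, with a mean log2 CPM above 3 in PBS libraries and without the members, centred within tissue. Members and gene lists were chosen with earlier results of these data known. From each list, in each direction, up to 3 called genes with the largest fold change between α-IgLON5 and control IgG were named, and for Cldn5 and Plvap the 5 genes most like them. The tissue comparisons in control IgG and α-IgLON5 libraries, the relation between tissues over numbers and the settings without both libraries of number 8, 9 or 16 were added after the values were seen.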

Additional observations from a re-analysis of the deposited data

Results flagged for a closer look

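In 60 groups of 4 or 5 libraries (10 members in 6 groups), 2 values stood apart from the others of their group by Dixon's criterion at 95%, which chance alone reaches in about 1 of 20 groups. Cdh5 in PBS cortex 38 was 22.3 CPM, where the next highest library held 15.6 CPM. Ocln in PBS hippocampus 14 was 19.4 CPM, above 14.2 CPM in the next.

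Among the 12 related genes, 8 of 72 groups held such a value. PBS cortex 38 was highest for Gfap (386 CPM) and Col4a2 (72.8 CPM) and lowest for Cldn12 (44.3 CPM), and it also had the highest leptomeningeal marker sum. Control IgG hippocampus 37, the library with the highest cortex marker sum of its tissue, was highest for Cav2 (72.0 CPM) and Emcn (3.66 CPM). α-IgLON5 library 8 was highest for Gfap in the cortex (1290 CPM against 532 CPM in the next) and for Col4a1 in the hippocampus (100.2 CPM). F11r in α-IgLON5 cortex 9 was 10.3 CPM, in a group whose 4 values were close to each other. The causes were not tested.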

How the results depend on the processing

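Of 1890 recomputed member differences with an adjusted p, 1729 kept their direction and side of the threshold, 12 passed it newly, 5 no longer passed, and 144 uncalled values changed sign and stayed uncalled. The number of members called in hippocampus between α-IgLON5 and PBS, 0 of 10, ranged from 0 to 1 with single libraries left out (6.02% to 6.16% of all genes in the fits with 1), and was 1 without both libraries numbered 9 (Pecam1, 3.55%) and 1 without both numbered 16 (Cldn5, 6.62%). Between α-IgLON5 and control IgG cortices it was 1 with DESeq2 (Tek) and 0 to 1 with single libraries left out (3.13% in the fit with 1). A fold threshold of 2 left 0 members in control IgG (4.45% of all genes) and 1 (Ocln) in α-IgLON5 libraries (5.16%) between tissues. With only the groups compared, 2 were called in control IgG libraries (Ocln and Slc2a1, with 22.7% of all genes), and Tek in α-IgLON5 libraries was no longer called (adjusted p 0.126), nor was it with no count filter beyond 1 count (adjusted p 0.0609).

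Libraries sharing a number correlated over genes at -0.0498 to 0.443 (median 0.194, 13 pairs, 8 above 0.1), and 10 of 13 correlated best with their own number, so the numbers may mark single animals. As not every pair exceeded 0.1 and the labels do not state it, the reported tests have no block. With the number as a replicate block, 3 members differed between tissues in PBS (Ocln, Slc2a1 by 0.24 and Mfsd2a by -0.37), where 29.2% of all genes were called, 2 in control IgG (Ocln and Slc2a1; 19.9% of all genes) and 4 in α-IgLON5 libraries (Ocln, Cldn5, Tek and Mfsd2a; 26.9%), and the blocked interaction called 0 members and 0.00987% of all genes. With 4 or 5 libraries a group, a missing call does not exclude a difference within the interval given.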
